A study of Mus musculus with 2 samples.

Results

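The 9 genes described here encode Ca2+/calmodulin-dependent protein kinases and neuronal regulators of calmodulin: the CaMKII subunit genes Camk2a, Camk2b, Camk2d and Camk2g, the CaMKIV gene Camk4, the upstream kinase genes Camkk1 and Camkk2, and the calmodulin-binding genes Nrgn and Pcp4. They were taken by symbol from the 21938 protein-coding genes of GENCODE M21 (mm10), and each was examined over its annotated span plus 10 kb on both sides. Open chromatin had been mapped by DNase-seq in frontal cortex of B6CASTF1/J males aged 14 days, an F1 hybrid of the C57BL/6J and CAST/EiJ strains. The single group held 2 libraries, numbered as biological replicates 1 and 2, each labelled as tissue of 3 males. Both carried the same donor number, so that their separation at the level of animals is not settled by the labels, and their spread may in part be technical. No other genotype, treatment or age was studied, and the 2 libraries were compared only with each other and with the rest of the genome.

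Calmodulin is a small calcium sensor that binds its targets when calcium enters a neuron. CaMKII, a large holoenzyme of the postsynaptic density, is activated by calcium-loaded calmodulin and can then hold its own activity by autophosphorylation, a step known for its part in synaptic plasticity. CaMKIV acts mainly in the nucleus on transcription factors such as CREB and needs phosphorylation by a CaM kinase kinase for full activity, while neurogranin (Nrgn) and PEP-19 (Pcp4) bind calmodulin through IQ motifs and tune how much of it is free.

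DNase I cuts DNA most readily where nucleosomes are missing, so dense cuts mark open promoters and enhancers. The height of a peak below is the authors' deposited signal value, which was scaled library by library in a way the sources do not describe. A shared region is a pair or group of peaks of both libraries that overlap by at least 1 bp, and a promoter region lies within 1000 bp of any annotated start of the gene. A footprint is a short stretch within open DNA that is cut less than its surroundings.

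In each library a peak lay at the promoter of all 9 genes. Of all protein-coding genes, 59.7% were open at the promoter in both. Their spans and flanks held 50 of the 53659 shared regions of the genome. Of these, 17 were promoter regions, 30 were distal (farther than 1000 bp from every start of a protein-coding gene) and 3 lay at the start of a neighbouring gene. Over the genome, 64.4% of shared regions were distal. The distal regions of these genes comprised 16 in introns, 5 upstream, 7 downstream and 2 over exons. At least 1 shared distal region was found at 8 of the 9 genes, all but Camkk2, against 46.0% of all protein-coding genes. That share is not matched for gene length. Most of the 9 genes lay in classes 8 to 10 of 10 by length, where the median gene had 1 to 3 such regions. In the shorter classes the median was 0. The median height of the 50 regions was 1.42 in replicate 1 and 1.49 in replicate 2, compared with 1.07 and 1.02 over all shared regions.

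**Figure D1:**
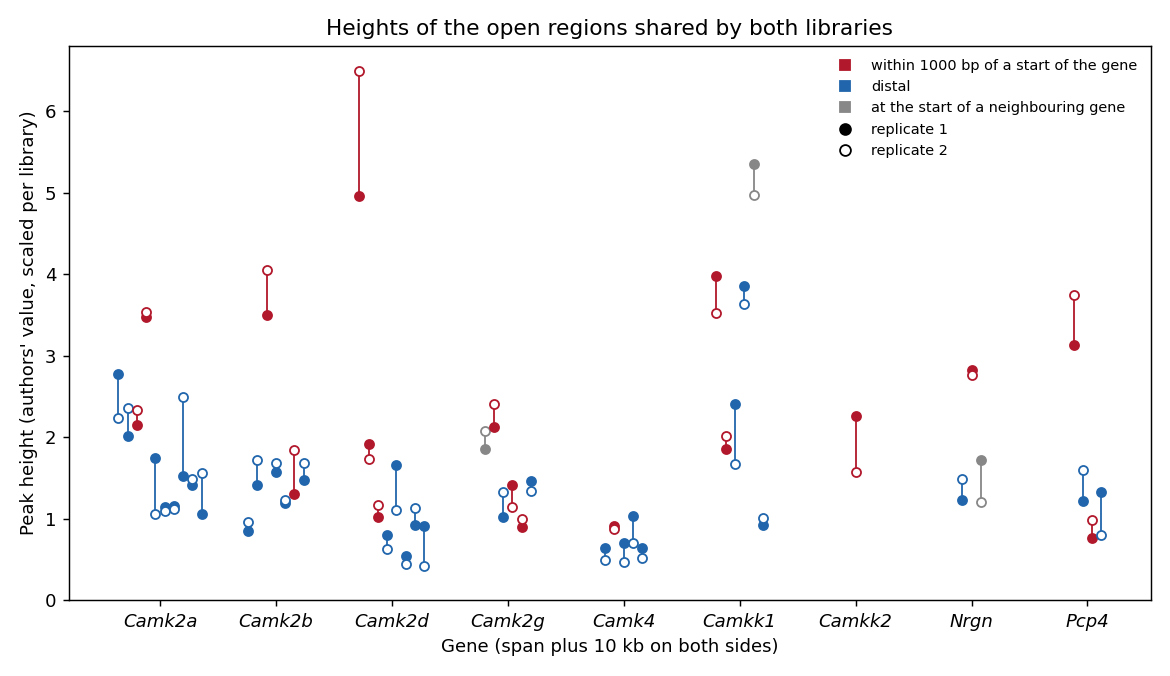
Peak height (the authors' value, scaled per library) of each of the 50 shared open regions, ordered by position within each gene, with filled points for replicate 1, open points for replicate 2 and a line joining the pair. The tallest promoter region is that of Camk2d (4.96 and 6.50), the only promoter region of Camk4 lies near 0.9, and Camkk1 has a distal region of 3.86 and 3.64, nearly level with its promoter.

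Marker genes were checked against the labelled tissue. Promoters were open in both libraries for 4 of 5 markers of excitatory cortical neurons, the exception being Slc17a7 (replicate 2 alone, 1.18). The counts were 2 of 4 for interneurons, 1 of 3 for astrocytes, 0 of 3 for oligodendrocytes, 1 of 3 for microglia, 0 of 4 for cerebellum and hindbrain, and 0 of 1 for choroid plexus. The striatal list stood at 2 of 3, with Drd1 at 1.86 and 1.68, Ppp1r1b at 2.16 and 1.85, and no promoter peak of Drd2 in either library. Distal regions did not follow the promoters of these glial markers, with 11 shared at Mbp, 6 at Slc1a3, 6 at Cx3cr1 and 4 at P2ry12. The part of other cell types or of neighbouring striatum in the values below was not tested.

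Camk2a encodes the alpha subunit, the main CaMKII isoform of forebrain excitatory neurons. The gene (ENSMUSG00000024617.16) lies on the plus strand of chromosome 18 at 60925618 to 60988152. Its tallest promoter region, 60925421 to 60925680 over the principal start and 5′ UTR, reached 3.48 in replicate 1 and 3.54 in replicate 2 (3.51 ± 0.0492, SD, n = 2). A further promoter region just upstream, 60925061 to 60925400, stood at 2.15 and 2.33. The libraries nearly coincided at both. Among all genes with a promoter peak the tallest region was at percentiles 56.0 and 57.4, close to the middle, where the medians were 3.03 and 2.96.

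Camk2a had the most shared distal regions of the 9 genes, 8 over 62.5 kb plus flanks, which is 0.969 per 10 kb. The count fell to 3 with the shorter peak list and to 4 without flanks, level with Camk2d. With replicate 1 left out, so that all peaks of replicate 2 counted, Camk4 also had 8. Genes of the same length class, 1 of 10 classes of nearly equal size, had a median of 0.118, and Camk2a was at percentile 99.6 of the 2194 genes in its class. The 8 regions were spread over 2 upstream, 4 intronic and 2 downstream of the gene. Upstream, the one at -6.53 kb from the principal start measured 2.78 and 2.24, and the one at -3.48 kb measured 2.01 and 2.36. Both were about as tall as the lower of the promoter regions. In the introns, heights were 1.74 and 1.06 at 5.08 kb, 1.15 and 1.10 at 21.6 kb, 1.16 and 1.12 at 23.1 kb, and 1.52 and 2.49 at 52.9 kb. The intronic region at 52.9 kb was the one of all 50 that most favoured replicate 2, with a log2 ratio of replicate 2 over replicate 1 of 0.72. Downstream, heights were 1.42 and 1.49 at 63.7 kb and 1.06 and 1.56 at 67.7 kb.

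Open DNA was found at the 5′ starts of Camk2a and not at its internal ones. The 3 protein-coding starts from 60925618 to 60925725 shared the promoter regions above, whereas at the internal protein-coding starts at 60963554 and 60963600 no base within 1000 bp passed the authors' false discovery limit of 0.05 in either library. The start at 60926949 likewise had none.

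**Figure D2:**
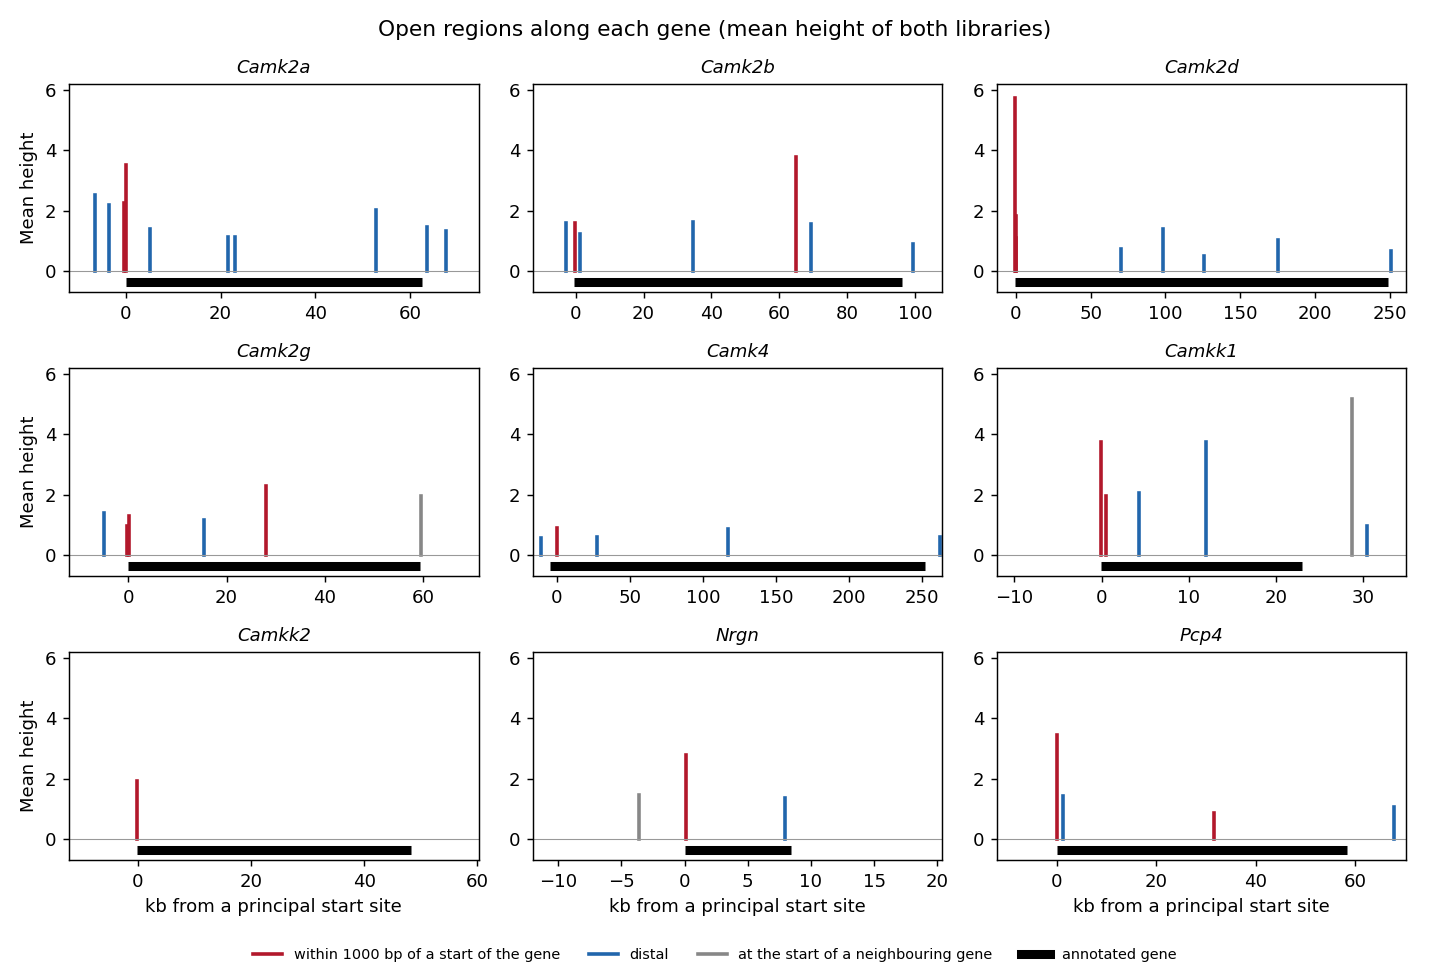
Mean height of both libraries for each shared region (vertical lines) against its distance in kb from a principal start of the gene, with the annotated gene as a black bar drawn in the direction of transcription. Camk2a carries distal regions on both sides and in its introns, Camk2b and Camk2g have their tallest promoter region far inside the gene, and Camkk2 has a single region.

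Camk2b encodes the beta subunit, which also binds filamentous actin. The gene (ENSMUSG00000057897.14) lies on the minus strand of chromosome 11 at 5969644 to 6066362. Its principal starts, at 6065563 and 6065748, had a broad GC-rich region (73.4% G or C) of moderate height, 1.31 in replicate 1 and 1.85 in replicate 2. The tallest promoter region lay 64.9 kb inside the gene, at 6000461 to 6000820, and measured 3.50 and 4.05 (3.78 ± 0.392, SD, n = 2). It was assigned to the promoter only because a noncoding processed transcript starts next to it at 6000448. In both libraries this intronic site was taller than the region at the principal starts. The middle 300 bases of it are shown because they carry the tallest signal of the gene, read along the gene, with capitals for bases under a footprint of both libraries (chr11:6000491-6000790, minus strand).
Camk2b internal region: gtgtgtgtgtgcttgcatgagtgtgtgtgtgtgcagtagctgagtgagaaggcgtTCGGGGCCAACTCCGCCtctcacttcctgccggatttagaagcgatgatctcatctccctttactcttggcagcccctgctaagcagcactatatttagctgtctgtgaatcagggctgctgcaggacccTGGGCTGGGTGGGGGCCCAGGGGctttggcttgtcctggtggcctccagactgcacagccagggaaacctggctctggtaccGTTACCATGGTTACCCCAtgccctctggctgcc

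This region held 5 footprints in replicate 1 and 4 in replicate 2, of which 3 in each overlapped one of the other library, the 3 runs in capitals. A match to the MEF2 motif, the site of an A and T rich binding factor of muscle and neurons, lay at 6000637 to 6000646 between the runs and under no footprint of either library. The other shared regions of Camk2b were 5 distal ones, 0.428 per 10 kb, at percentile 89.3 of its length class. Their heights ran from 0.848 and 0.959, downstream within the neighbouring gene Ykt6, which encodes a SNARE protein, to 1.58 and 1.68, the highest in the mean, in the intron at 34.7 kb.

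Camk2d encodes the delta subunit, broadly expressed and known best from heart. The gene (ENSMUSG00000053819.16) lies on the plus strand of chromosome 3 at 126596302 to 126846326. Its region at 126596181 to 126596400 was the tallest promoter region of the 9 genes in each library, 4.96 in replicate 1 and 6.50 in replicate 2 (5.73 ± 1.09, SD, n = 2), at percentiles 70.6 and 81.4 of open genes. Its centre was at -0.716 kb from the principal start at 126597007, and it covered the start of a noncoding transcript at 126596302. The lower of its values still exceeded the highest promoter value of any other of the 9 genes. The whole region of 220 bp is shown because it combines the tallest signal with a full cAMP response element (CRE, TGACGTCA, the site bound by CREB), again with capitals for bases under a footprint of both libraries (chr3:126596181-126596400, plus strand).
Camk2d region: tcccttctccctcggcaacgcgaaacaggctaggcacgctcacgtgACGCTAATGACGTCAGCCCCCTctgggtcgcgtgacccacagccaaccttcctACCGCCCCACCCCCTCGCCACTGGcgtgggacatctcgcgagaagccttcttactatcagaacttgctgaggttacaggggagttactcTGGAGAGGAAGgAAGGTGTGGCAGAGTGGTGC

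The CRE at 126596234 to 126596241 lay entirely in the first run of capitals. The run after it held a GC box (GGGCGG on the other strand), the site of SP and KLF factors. Towards the coding start, Camk2d had broader and lower promoter regions, 520 bp wide with heights of 1.92 and 1.73 and 680 bp wide with heights of 1.02 and 1.17. These 2 held at most 1 footprint per library, although they were rich in G and C (71.0% and 67.6%). The 10 internal starts from 126778167 to 126807162 had no base under the false discovery limit within 1000 bp in either library. Camk2d had 5 distal regions over 250 kb (0.185 per 10 kb, percentile 62.8), of which 1 lay over a coding exon at 175 kb (0.920 and 1.13). The downstream region at 251 kb, with heights of 0.908 and 0.425, favoured replicate 1 most of all 50 (log2 ratio -1.09).

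Camk2g encodes the gamma subunit, expressed in many tissues. The gene (ENSMUSG00000021820.18) lies on the minus strand of chromosome 14 at 20734875 to 20794088. The region at its principal start measured 1.41 in replicate 1 and 1.15 in replicate 2, and a region just upstream 0.896 and 1.00. Taller was an internal region at 20765961 to 20766220 over a coding exon, 28 kb into the gene and within 1000 bp of an internal protein-coding start (20765414) and of the start of a transcript with a retained intron (20765509). It reached 2.13 and 2.41 (2.27 ± 0.201, SD, n = 2). Thus Camk2b and Camk2g both had a taller region inside the gene than at the principal start, in each library, while Camk2a and Camk2d had their tallest region near the 5′ end. Of the other regions of Camk2g, 2 were distal (0.252 per 10 kb, percentile 74.0), and 1 lay at the start of Ndst2, a heparan sulfate sulfotransferase gene just past its 3′ end (1.86 and 2.08).

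Camk4 encodes CaMKIV. The gene (ENSMUSG00000038128.7) lies on the plus strand of chromosome 18 at 32934931 to 33191228. Its promoter peak was the lowest of the 9 genes in both libraries, 0.908 in replicate 1 and 0.876 in replicate 2 (0.892 ± 0.0225, SD, n = 2), at percentiles 10.3 and 9.53 of open genes. The region was also the widest of the 50, 1315 bp from 32938546 to 32939860 across the principal start, made of 2 peaks in replicate 1 and 3 in replicate 2. In it, bases under the false discovery limit numbered 539 in replicate 1 and 1245 in replicate 2, and footprints 3 and 13. So the libraries coincided in height and differed in extent. The tissue is a mixture of cells, and a low height from a few cells with a fully open promoter cannot be told apart from weak opening in many cells.

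Away from its promoter, Camk4 had 4 distal regions over 256 kb plus flanks (0.145 per 10 kb, percentile 51.9, close to the class median of 0.139). Their heights were 0.645 and 0.50 upstream, 0.705 and 0.467 in the intron at 27.9 kb, 1.03 and 0.701 in the intron at 117 kb, and 0.645 and 0.517 downstream within Stard4, a gene of intracellular sterol transport. All 4 were higher in replicate 1. The nonsense-mediated decay starts at 32934931 and 32934972 had no listed base in either library. Peaks of 1 library alone were 3 of 9 at Camk4 in replicate 1 and 4 of 11 in replicate 2. The genome-wide shares were 26.7% and 28.3%, so these few peaks set Camk4 little apart. All were intronic and had no listed base in the other library.

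The CaM kinase kinases phosphorylate CaMKI and CaMKIV, and Camkk2 also phosphorylates the energy sensor AMPK. Camkk1 (ENSMUSG00000020785.17) lies on the plus strand of chromosome 11 at 73019008 to 73042073. Its promoter region, 73018801 to 73019080, reached 3.98 in replicate 1 and 3.53 in replicate 2 (3.75 ± 0.317, SD, n = 2), with a lower promoter region in an intron 0.558 kb in (1.86 and 2.02). A distal region in the intron 12 kb from the principal start, 73030921 to 73031180, measured 3.86 and 3.64 (3.75 ± 0.150, SD, n = 2). It was the tallest of the 30 distal regions in each library and lay within the spread of the gene's own promoter. Both are shown as a promoter and distal pair of like height, the promoter without its UTR bases (chr11:73018801-73018987) and the distal region whole (chr11:73030921-73031180), plus strand, with capitals for bases under a footprint of both libraries.
Camkk1 promoter: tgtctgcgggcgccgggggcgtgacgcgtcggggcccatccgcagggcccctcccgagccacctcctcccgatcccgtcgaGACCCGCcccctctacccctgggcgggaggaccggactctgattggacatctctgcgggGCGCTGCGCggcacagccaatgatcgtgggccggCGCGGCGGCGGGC
Camkk1 distal: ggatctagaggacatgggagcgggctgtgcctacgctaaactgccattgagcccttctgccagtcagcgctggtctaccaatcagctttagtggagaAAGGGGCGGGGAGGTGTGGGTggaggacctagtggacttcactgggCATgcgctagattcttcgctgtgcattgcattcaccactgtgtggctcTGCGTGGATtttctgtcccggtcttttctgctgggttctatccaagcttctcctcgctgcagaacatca

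The whole promoter region of 280 bp held 77.1% G or C and the distal region 55.4%. Each held a GC box with all 6 bases under footprints of both libraries. That of the promoter, at 73018984 to 73018989, runs past the end of the bases shown. The distal region had 3 footprints in replicate 1 and 4 in replicate 2, 3 of them overlapping in each. Another intronic region, at 73023201 to 73023500, measured 2.41 and 1.67. It held the only other full CRE found in the 300 bp searched around the centre of each region. That CRE, at 73023297 to 73023304, is shown in capitals for comparison with that of Camk2d (chr11:73023271-73023330, plus strand).
Camkk1 CRE: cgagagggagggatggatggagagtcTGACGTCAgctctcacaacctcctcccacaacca

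A footprint of replicate 2 covered 4 of the 8 bases of this CRE, and none of replicate 1 reached it, whereas all 8 bases of the Camk2d CRE were covered in both libraries. With 3 distal regions over 23.1 kb plus flanks, Camkk1 had 0.697 per 10 kb, at percentile 95.0 of its length class, whose median was 0. Downstream of it, the start of Ncbp3, which encodes a cap-binding protein, had the second tallest of the 50 regions in the mean, at 5.35 and 4.98, and a distal region inside Ncbp3 stood at 0.920 and 1.01.

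Camkk2 (ENSMUSG00000029471.13) lies on the minus strand of chromosome 5 at 122731170 to 122779409. It had a single shared region, at its promoter, of height 2.26 in replicate 1 and 1.58 in replicate 2 (1.92 ± 0.481, SD, n = 2). No distal region was shared, which put it at percentile 21.1 of its length class, where the median was 0.142 per 10 kb. Camkk2 was the only one of the 9 genes below its class median. Yet each library had further peaks of its own there, 2 in replicate 1 (1.11 and 1.09) and 5 in replicate 2 (from 0.734 to 1.03), and in 6 of these 7 the other library listed no base. Over the span and flanks, 647 bases were under the false discovery limit in replicate 1 and 1536 in replicate 2. The absence of shared distal regions thus rested on peaks that were not found at the same place in both libraries. The bases upstream of its starts are shown because both libraries marked the same stretch there, replicate 1 with 2 neighbouring footprints and replicate 2 with 1 across both (chr5:122779411-122779560, minus strand, capitals as before).
Camkk2 promoter: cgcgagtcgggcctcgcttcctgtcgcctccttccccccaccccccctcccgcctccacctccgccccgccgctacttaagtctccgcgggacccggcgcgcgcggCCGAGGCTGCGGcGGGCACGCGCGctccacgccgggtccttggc

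Nrgn encodes neurogranin, which holds calcium-free calmodulin in dendritic spines. The gene (ENSMUSG00000053310.11) lies on the minus strand of chromosome 9 at 37544492 to 37552904 and is the shortest of the 9 (8.41 kb). Its promoter region, 37552621 to 37552880 over the 5′ UTR, had heights of 2.82 in replicate 1 and 2.76 in replicate 2 (2.79 ± 0.0408, SD, n = 2), at percentiles 46.9 and 47.2. It held 3 footprints in replicate 1 and 4 in replicate 2, and 3 in each overlapped. Windows of 30 bases around the 2 longest overlaps are shown, with those bases in capitals (chr9:37552821-37552850 and chr9:37552700-37552729, minus strand).
Nrgn footprint nearer the start: agcaccaaAGCGAGCGAGGCGgagagagtc
Nrgn footprint farther in: attcgcaaGAGTTGCGGAGCGcgggagacc

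Nrgn was also the only one of the 9 with no peak of 1 library alone. Near its 3′ end, over the UTR at 7.91 kb, a distal region stood at 1.23 and 1.49, and this single region gave 0.352 per 10 kb (percentile 87.0, class median 0). With the shorter peak list, or with a promoter window of 2000 bp, Nrgn had no distal region and a density of 0. Upstream, the start of Siae, which encodes a sialic acid esterase, had heights of 1.72 and 1.21.

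Pcp4 encodes PEP-19, a small IQ-motif protein of deep-layer cortical neurons and Purkinje cells. The gene (ENSMUSG00000090223.2) lies on the plus strand of chromosome 16 at 96467606 to 96525793, and its regions up to 31.6 kb lie within the annotated span of Igsf5, an immunoglobulin superfamily gene, so that they cannot be assigned to 1 gene by position alone. The promoter region reached 3.13 in replicate 1 and 3.75 in replicate 2 (3.44 ± 0.441, SD, n = 2), at percentiles 51.4 and 59.9. Its part before the start is shown, since its capitals, the bases under footprints of both libraries, hold a match to the core motif of the insulator protein CTCF (chr16:96467501-96467605, plus strand).
Pcp4 promoter: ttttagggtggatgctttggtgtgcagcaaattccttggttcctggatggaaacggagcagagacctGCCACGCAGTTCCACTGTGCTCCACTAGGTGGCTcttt

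Beyond the promoter, Pcp4 had an intronic distal region at 1.27 kb of 1.22 and 1.60, and one downstream at 67.8 kb of 1.33 and 0.801. Together they gave 0.256 per 10 kb, at percentile 75.1 of the class. A region of 0.764 and 0.984 in the intron lay near the start of a processed transcript at 96499620, while the internal protein-coding start at 96493816 had no listed base. Pcp2, another Purkinje cell gene, had no promoter peak in either library.

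Ordered by the mean promoter height, Camk2d came first and Camk4 last, in each library as in the mean. Between them the order was less firm. Camk2b, Camkk1, Camk2a and Pcp4, from 3.78 to 3.44 in the mean, changed places between the libraries, as did Camk2g and Camkk2. Nrgn lay below the former and above the latter in both libraries. This order holds for any annotated start. With principal starts alone, Camk2b stood at 1.31 in replicate 1 and 1.85 in replicate 2, below Nrgn in both libraries. Camk2g then stood at 1.41 and 1.15, below Camkk2 in both.

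**Figure D3:**
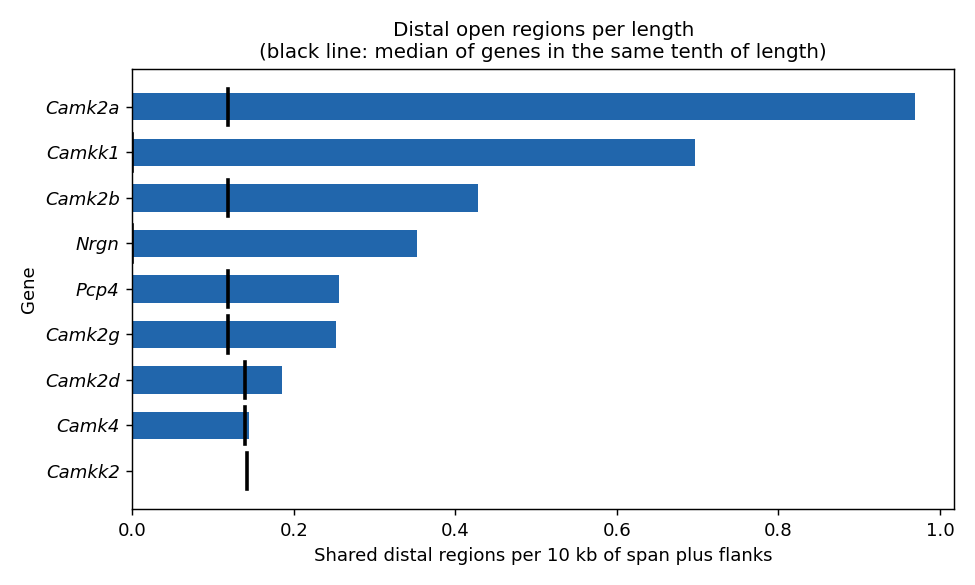
Density of shared distal regions for each of the 9 genes, as the number per 10 kb of span and flanks (bars), with the median of genes of the same length class as a black line. Camk2a (0.969) and Camkk1 (0.697) stand farthest above their class medians of 0.118 and 0, Camk4 is nearly level with its own, and Camkk2 is at 0.

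By distal density Camk2a (0.969) and Camkk1 (0.697) led, and the median of the 9 genes was 0.256 per 10 kb, compared with 0 over all protein-coding genes and 0.101 over those with a promoter peak in both libraries. Neither comparison is matched for gene length. In length classes 8, 9 and 10, which held most of the 9 genes, the medians over all genes were 0.142, 0.118 and 0.139. With flanks of 50 kb Camkk1 fell to sixth place at 0.244, and Camk2g rose to second at 0.314 behind Camk2a at 0.492. With 1 library left out, every distal peak of the other counted, shared or not. Densities can rise by this change of measure alone, and no class medians are given for it. The leading pair changed places with replicate 2 left out (Camkk1 at 1.16, Camk2a at 1.09). Camkk2 moved from the last place to the third with replicate 1 left out (0.586). Leaving out replicate 1 likewise raised Camk4 to 0.290, and leaving out replicate 2 raised it to 0.253. Camk2g rose to 0.379 with either library left out, and Pcp4 to 0.384 without replicate 2.

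The libraries were close overall. The log2 ratio of replicate 2 over replicate 1 had a median of 0.03 over the 50 regions and -0.06 over all shared regions. Of the 50, 24 were higher in replicate 1 and 26 in replicate 2. The 2 extremes, downstream of Camk2d (-1.09) and in the intron of Camk2a (0.72), were those outside the range that held the central 95% of all shared regions, -0.89 to 0.59. Peaks of 1 library alone made up 14 of the 66 peaks over these genes in replicate 1 and 15 of 67 in replicate 2. The genome-wide shares of such peaks were 26.7% and 28.3%.

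At least 1 footprint in each library was found in 44 of the 50 regions, against 77.0% of all shared regions, and 1 region, upstream of Camk4, held none. There were 122 in replicate 1 and 139 in replicate 2, or 2.44 and 2.78 per region, against 2.51 and 3.05 over all shared regions. An overlap with a footprint of the other library was found for 77 in replicate 1 (63.1%) and for 73 in replicate 2 (52.5%). The shares over all shared regions, 60.2% and 48.5%, were close to these. The median length was 10 bases in replicate 1 and 11 in replicate 2.

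**Figure D4:**
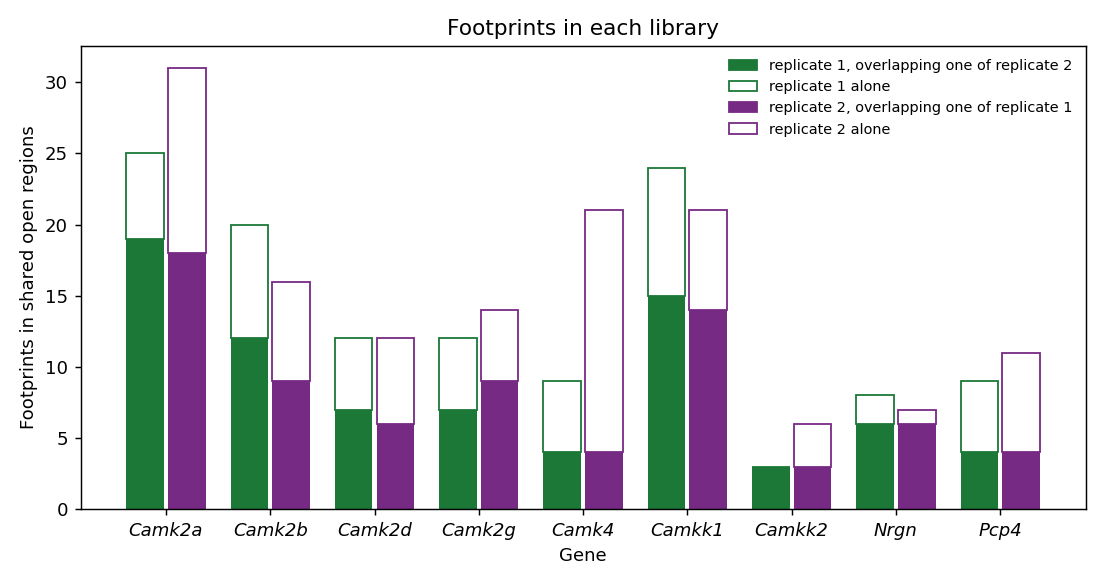
Number of footprints in the shared open regions of each gene, for replicate 1 (green) and replicate 2 (purple), with the filled part for those that overlap a footprint of the other library. Camk2a has most (25 and 31), and Camk4 has 9 in replicate 1 and 21 in replicate 2 with 4 shared in each.

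The share of overlapping footprints varied between the genes, a variation that was not tested. At Camk2a 19 of 25 footprints of replicate 1 and 18 of 31 of replicate 2 overlapped. At Camkk1 the counts were 15 of 24 and 14 of 21, and at Nrgn 6 of 8 and 6 of 7. At Camk4 they were 4 of 9 and 4 of 21, with the surplus of replicate 2 in the broad promoter region. Since the footprints carry no strength of their own, only their place and length could be compared.

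Motifs were searched on both strands in the 300 bp around the centre of each region. This window left out the outer bases of wider regions and ran past the ends of narrower ones. The CRE (TGACGTCA) was found in 2 of the 50 regions (4.00%, against 1.47% of all shared regions), those of Camk2d and Camkk1 shown above. The AP-1 site (TGANTCA, where N is any base) was found in 8 (16.0%, against 10.8%) and the EGR site (GCGNGGGCG, bound by the activity-induced factor EGR1) in 2 (4.00%, against 4.32%), at the principal promoters of Camk2b and Camk4. The GC box (GGGCGG, which can overlap the EGR site) was found in 16 (32.0%, against 29.2%), and the NRF1 site (GCGCATGCG) in 0, against 1.29%. The E-boxes CAGATG and CAGCTG were found in 13 (26.0%, against 25.0%) and 10 of 50 (against 24.5%), the RFX site (GTTGCC) in 9 (18%, against 14.7%), and MEF2 in 2 (4.00%, against 3.19%). Counts this small are near the genome-wide shares or differ from them by a few regions. A match was counted with a footprint where at least 1 base overlapped. Of the 32 GC box matches, 12 overlapped a footprint of both libraries, against 38.9% of all GC box matches in shared regions. Of all 87 matches to these motifs, 21 overlapped a footprint of both libraries, against 22.9% over all shared regions, and 21 one of a single library. Every base was covered in both libraries in 10 of the 87, against 13.7%.

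The CTCF core motif was added after the footprint sequences had been seen. Its counts here were favoured by that choice and are no independent comparison with the genome-wide shares. It was found in 6 regions (12%, against 6.10%), and each of the 6 matches overlapped a footprint of both libraries. Of such matches in all shared regions, 70.6% did so. All 12 bases were covered in both libraries in 3 of the 6, both matches of Camk2a and that of Pcp4, against 42.4%. At Camk2b 8 bases were covered in replicate 1 and 12 in replicate 2, and at Camk2g and in Ncbp3 12 and 11. The matches were in the intron of Camk2a at 52.9 kb and downstream of it at 63.7 kb, in the intron of Camk2b at 69.4 kb, upstream of Camk2g at -4.89 kb, inside Ncbp3 past Camkk1, and at the Pcp4 start. The match of Camk2g overlapped a GC box by a few bases. The 4 matches outside Camk2a are shown on the strand of the match, with the motif in capitals, to let the cores be compared (chr11:5996124-5996163 plus, chr14:20798961-20799000 minus, chr11:73049515-73049554 minus, chr16:96467575-96467614 plus).
Camk2b intron: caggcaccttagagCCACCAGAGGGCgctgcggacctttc
Camk2g upstream: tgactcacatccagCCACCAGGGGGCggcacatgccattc
Camkk1 downstream: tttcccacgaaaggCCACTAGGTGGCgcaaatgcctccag
Pcp4 start: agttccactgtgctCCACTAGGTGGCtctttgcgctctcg

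The cores of the Camkk1 and Pcp4 sites were the same 12 letters. The bases around them differed.

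**Figure D5:**
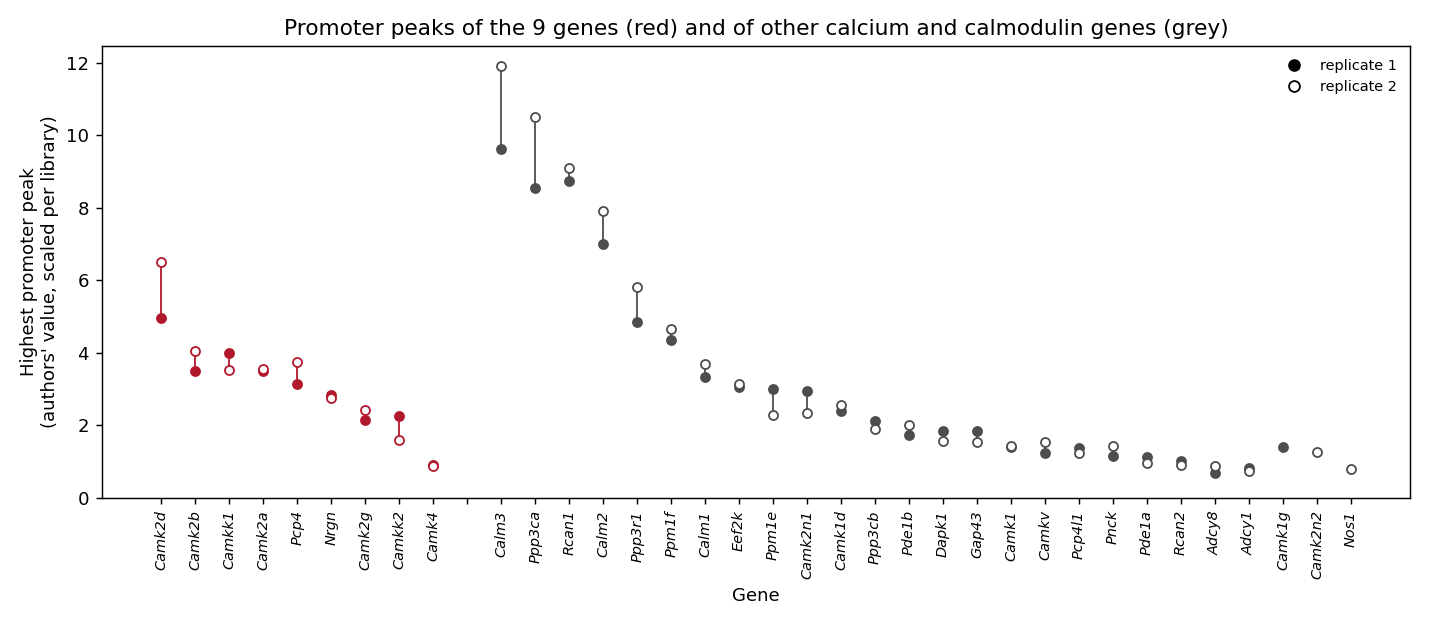
Height of the tallest promoter peak in replicate 1 (filled) and replicate 2 (open) for the 9 genes (red) and 26 other calcium and calmodulin genes (grey), each group ordered by the mean. Calm3, Ppp3ca, Rcan1 and Calm2 stand above all 9 genes, Camk4 lies among the lowest, and the last 3 genes have a peak in 1 library alone. For the order, the missing peak of each of these 3 was given no height, which lowers their place.

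Of 26 other genes of the calcium and calmodulin pathway, 23 had a promoter peak in both libraries, against the 59.7% of all genes given above. The tallest in the mean were Calm3, 1 of the calmodulin genes, at 9.61 and 11.9 (10.7 ± 1.59, SD, n = 2), and Ppp3ca, the catalytic subunit of the calmodulin-activated phosphatase calcineurin, at 8.55 and 10.5 (9.52 ± 1.37, SD, n = 2). In replicate 1 Rcan1, a calcineurin regulator gene, was taller than Ppp3ca (8.74 and 9.08). These 3 and the calmodulin gene Calm2 (7.45 ± 0.643, SD, n = 2) exceeded each of the 9 genes, Camk2d included, in each library. For Rcan1 this held only with any annotated start. With principal starts alone it stood at 1.85 and 1.88, below Camk2d, whose values were the same either way. Rcan1 and Calm2 were named after their values were seen. The lowest were the calmodulin-stimulated adenylyl cyclase genes Adcy1, at 0.824 and 0.726, and Adcy8, at 0.681 and 0.884, near Camk4. The 3 genes without a promoter peak in both libraries were the CaM kinase gene Camk1g (1.39 in replicate 1 alone), the CaMKII inhibitor gene Camk2n2 (1.26 in replicate 2 alone) and the nitric oxide synthase gene Nos1 (0.776 in replicate 2 alone). The other CaMKII inhibitor gene, Camk2n1, named after its values were seen, had a promoter peak of 2.94 and 2.34 and 5 distal regions, 1.94 per 10 kb, at percentile 99.6 of its length class.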

How the data were processed

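DNase-seq was done on 2 libraries of 1 group, frontal cortex of males aged 14 days. The authors deposited peaks, footprints and cut rates per library, not pooled, with coordinates of mm10, per the deposited descriptions of the files. The callers, the aligner and their versions are not given in the sources used here. Peak heights are the authors' signal values, scaled per library, so a mean of both combines 2 scales. The cut rate track deposited by the authors lists bases whose false discovery rate, a form of q-value, was below 0.05, and the deposited footprints carry a constant p-value of 0.01, read as a threshold. Reads were not counted here, so the depth is unknown and no counting interval could be given. Reads of an F1 hybrid can map less well at CAST/EiJ variants, which was not tested.

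The longer of the 2 peak lists of each library was used. Peaks overlapping by at least 1 bp formed 1 shared region, given the highest value of each library. Genes and starts came from GENCODE M21, without the mitochondrial genes. A gene's promoter height is that of its tallest peak within 1000 bp of any start (93513 starts). Distal density is the number of shared regions farther than that from every protein-coding start, per 10 kb of span plus flanks. Percentiles of density are within 10 classes of gene length. With 1 group no test was made, and shares over all genes or regions stand beside the main counts. Python 3.11.15, numpy 2.4.6 and matplotlib 3.10.9 were used, and the counting was tested on simulated intervals. Sequences are of mm10 from the reference genome.

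The members, the pathway and marker lists and the motifs were chosen with earlier results of these data known. Named genes were all 9 members, the 2 tallest, 2 lowest and up to 4 unshared genes of the pathway list, and neighbours at or around a region. The CTCF core motif and the use of principal starts alone were added after the data had been seen.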

Additional observations from a re-analysis of the deposited data

How the results depend on the processing

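No paired analysis was possible because there was 1 group. The shorter peak list lowered the shared regions from 50 to 26 and the median distal density from 0.256 to 0.0741 per 10 kb. Regions with a planned motif went from 40 of 50 to 21 of 26, so their count fell with the regions and their share hardly changed. The shorter list left 8 of the 9 promoters open in both libraries, Camk4 lacking one in replicate 1. Without flanks there were 33 shared regions and a median density of 0.172, with 50 kb flanks the density was 0.253, and with a promoter window of 2000 bp it was 0.185. Without flanks Nrgn led at 1.19 per 10 kb, and the shorter list placed Camkk1 (0.464) above Camk2a (0.363). Leaving out either library, so that all peaks of the other counted, shared or not, gave a median density of 0.379. The median promoter height, 3.44 in the mean of both, was 3.13 to 3.53 with 1 library left out and 2.79 with principal starts alone, where Camk2b fell from 3.78 to 1.58 and Camk2g from 2.27 to 1.28. Of 162 values of single genes under alternatives, 42 moved by more than the spread between libraries or by over 1.5 times. Promoter heights with 1 library left out are among the 162 but could not count as moved. Such a change always shifts the mean by less than the SD of the 2 libraries. With 2 libraries of unknown depth, an absent peak is one not detected.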
